A study of Mus musculus with 10 samples.

Results

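The E2F and retinoblastoma family was followed here as 10 genes, the transcription factor genes E2f1 to E2f8 and the pocket protein genes Rb1 and Rbl1, chosen by name out of 55421 genes in the count table. All 10 passed the filter on low counts and are among the 16596 genes tested. RNA was sequenced from germinal center B cells of the spleen, the B cells that divide and mutate their antibody genes after immunization, taken from C57BL/6 mice aged 8 to 10 weeks at day 10 after immunization and enriched with beads for the lectin PNA. Mice of the genotypes Pbrm1+/+ (WT) and Pbrm1-/- (HOMO) were compared, each in a CB and a CC fraction, letters that the labels do not spell out and that in this field usually stand for centroblast and centrocyte. Of the 10 libraries, 3 from each fraction were WT and 2 from each fraction were HOMO, with total counts between 9954006 and 67625110. Pbrm1 encodes a bromodomain subunit of the PBAF chromatin remodelling complex. The sources used here do not say in which cells the deletion was made, how the fractions were separated, or whether animals were pooled.

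E2F proteins bind promoters of genes for DNA replication and cell division, most of them as dimers with a DP protein. The pocket proteins, encoded by Rb1, Rbl1 and Rbl2, bind E2Fs and hold these promoters down until cyclin-dependent kinases phosphorylate them. E2F1, E2F2 and E2F3 are called activators, E2F4 and E2F5 act mainly with the pocket proteins p107 (Rbl1) and p130 (Rbl2), and E2F6, E2F7 and E2F8 repress without a pocket protein. Several genes of the family, Rbl1 and E2f1 among them, are known E2F targets themselves. Germinal center B cells move between a dividing state in the dark zone and a state of antigen testing and selection in the light zone, and E2F targets are among the genes known to differ between them.

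RefSeq promoters (GRCm38.p6, 250 bases before to 50 after a start site) matched 7 of the 10 genes, and entries for E2f4, E2f5 and Rb1 were missing. They were searched on both strands for the E2F motif TTTNNCGC, which 5.17% of 32851 promoters of this length hold at least 1 time and 0.326% hold at least 2 times. Matches were found in 4 genes, and none were found in this window of E2f1, E2f6 or E2f8. The E2f1 window (chr2:154569377-154569676, minus strand) lies inside the gene as counted (chr2:154559407-154569892). The stretch before the outermost annotated start of E2f1 was therefore not searched. Rbl1 held 2 matches, TTTCGCGC starting 18 bases and TTTGTCGC starting 8 bases before the start site. The first E2f2 entry also held 2, TTTTCCGC and TTTGGCGC, both after the start site, E2f3 held 1 that starts 11 bases before it, and E2f7 held 1 that starts 198 bases before it. The stretches of Rbl1 and E2f3 that end at the base before the start site are shown, since Rbl1 gave the clearest difference below and both hold the motif close to the start; capitals mark the E2F motif (in E2f3 it lies on the other strand).
Rbl1 (chr2:157204535-157204634, minus strand): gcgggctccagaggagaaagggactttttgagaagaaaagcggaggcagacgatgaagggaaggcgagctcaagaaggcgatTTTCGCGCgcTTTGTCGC
E2f3 (chr13:29986064-29986163, minus strand): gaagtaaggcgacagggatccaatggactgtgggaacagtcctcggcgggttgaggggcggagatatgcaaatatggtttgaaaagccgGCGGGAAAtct
A second motif, the CHR element TTTGAA, which does not overlap the E2F motif and which MuvB complexes are known to bind, is held by 17.9% of the promoters. Among the members it was found in the second E2f2 entry, the first E2f3 entry and the E2f8 entry. The match in E2f3 lies in the stretch shown and is not in capitals. A match describes the sequence only and does not show that a protein binds there.

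Before the members, the libraries were checked. Pbrm1 lay at 309 to 319 CPM (a gene's counts scaled to the size of its library, with TMM factors, as all CPM values here) in WT CB, 239 to 250 in WT CC, 164 to 178 in HOMO CB and 150 to 152 in HOMO CC, so that every HOMO library was below every WT library of its fraction and none was near 0. All 9 defining markers of germinal center B cells were detected, with summed levels of 3860 to 5030 CPM in WT CB, 3530 to 3760 in WT CC, 4210 to 4610 in HOMO CB and 3990 to 4170 in HOMO CC. Markers of other cell types also differed. The 6 naive B cell markers summed to 204 to 225 CPM in WT CB and 194 to 207 in HOMO CB. In CC they summed to 437 to 474 in WT and 398 to 445 in HOMO, mostly Fcer2a. The 6 plasma cell markers lay at 647 to 724 in WT CB and 293 to 515 in WT CC. In HOMO they lay at 781 to 840 and 414 to 428, while Irf4 and Prdm1 rose in CC. The 8 T cell markers, nearly all Lck, lay at 78.6 to 117 and 158 to 225 in WT CB and CC. In HOMO they lay at 68 to 74.6 and 117 to 130. The 15 macrophage markers summed to 16 to 27.3 CPM in WT CB, 14.3 to 14.8 in HOMO CB, 28.5 to 35.4 in HOMO CC and 62.6 to 1130 in WT CC, with the highest sum in WT CC library 1 and none of the 15 at 0 in all libraries. The 9 erythroid markers reached 67.8 CPM in that library and 15 in WT CC library 2, against at most 3.85 elsewhere, and the 9 neutrophil markers reached 162 and 131 CPM in the HOMO CB and HOMO CC libraries numbered 2, against at most 15.4 elsewhere. The libraries also differed in a trend with GC content. The rank correlation of a gene's deviation from its mean over libraries with its transcript GC content, over 8802 genes, was -0.63 and -0.60 in HOMO CB, -0.17 and -0.22 in HOMO CC, 0.15, 0.25 and -0.46 in WT CB 1, 2 and 3, and 0.43, 0.55 and 0.15 in WT CC 1, 2 and 3, and Rb1 and Rbl1 had the lowest transcript GC content of the family (41.2% and 42.1%, against 46.8% to 58.3% in the E2F genes). Nothing in the labels says that libraries of a group came from different animals, so the spread behind the p-values is that of these libraries and may be technical. In bulk samples, fewer cells that express a gene and less RNA per cell cannot be told apart.

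The family spanned more than an order of magnitude in level per length. In WT CB, E2f2 stood highest at 48.5 ± 6.77 CPM per kb of exon (SD, n = 3), followed by E2f4 at 37.8 ± 6.22, Rbl1 at 34.2 ± 0.734, E2f8 at 28.4 ± 3.37 and E2f1 at 20.4 ± 2.61. Then came E2f3 at 9.47 ± 0.712, E2f5 at 9.41 ± 0.226, E2f7 at 7.8 ± 0.354, Rb1 at 5.03 ± 0.555 and E2f6 at 3.57 ± 0.217. The libraries of E2f2 and E2f4, of E2f4 and Rbl1, and of E2f3 and E2f5 overlapped, while the other neighbours in this order did not. By level per length, E2f2 kept the first place in all 4 groups. Rbl1 stood behind E2f2 and E2f4 in both WT groups and behind E2f2 alone in both HOMO groups, where it reached 41.3 ± 1.8 CPM per kb in CB and 31.3 ± 0.394 in CC (n = 2 each), and in HOMO CC it overlapped with E2f4 at 31 ± 0.988. Rb1 and E2f6 held the last 2 places in every group. By contrast with their levels, the genes differed little between libraries, with an SD of log2 CPM over the 10 libraries from 0.10 for E2f7 to 0.42 for Rb1, and 0.31 for Rbl1.

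**Figure D1:**
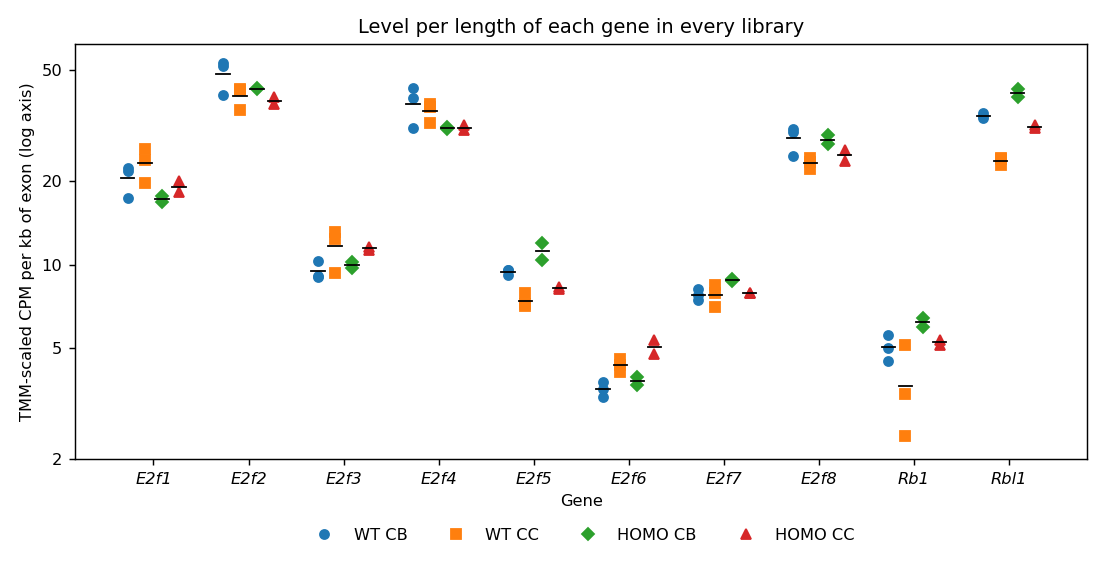
TMM-scaled CPM per kb of exon (log axis) of the 10 genes, 1 point per library and a bar at the mean of each group (n = 3 in WT and n = 2 in HOMO groups). E2f2 is highest in each group (48.5 in WT CB), and the CC libraries of Rbl1 lie below the CB libraries of their genotype.

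Between the fractions of WT mice, Rbl1 was the only member that passed the test, and it was lower in CC. Of the 10 members, 0 were called higher and 1 lower with edgeR's quasi-likelihood test at an adjusted p under 0.05, while 11.6% of all genes tested were called higher and 12.3% lower. At an unadjusted p under 0.05, 2 members were higher and 4 lower (17.7% and 18.6% of all genes). DESeq2 called 1 higher and 2 lower (27.4% of all genes in either direction). The median log2 change was -0.18 over the members and 0.01 over all genes tested. The WT libraries are numbered, and libraries of the same number deviated together, for numbers 1 and 2 less distinctly than for 3. The fit was therefore repeated with the number as a fixed block, which pairs WT libraries only. That fit called 2 members higher (E2f3 and E2f6) and 5 lower (E2f2, E2f5, E2f8, Rb1 and Rbl1). It called 35.4% of all genes. The calls also moved with the WT libraries numbered 3: leaving out that of CB gave 0 higher and 3 lower (E2f2, E2f8 and Rbl1), and leaving out that of CC gave 2 higher (E2f3 and E2f6) and 2 lower (Rb1 and Rbl1). These fits called 32% and 32.5% of all genes. By level, 1 member (E2f6) had all CC libraries above all CB libraries and 3 (E2f5, E2f8 and Rbl1) had them below, where 34.4% of all genes did not overlap in one direction or the other.

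In the HOMO mice, Rbl1 was again the only member called between the fractions. The counts were 0 higher and 1 lower, with 2.46% of all genes called higher and 2.98% lower, and 1 member higher and 2 lower at an unadjusted p under 0.05 (8.93% and 10.3% of all genes). The fixed block, DESeq2 and the fit without WT CC library 3 each called 1 member higher, E2f6. They called 13.8%, 9.98% and 9.7% of all genes in either direction. The median log2 change was -0.15 over the members and -0.01 over all genes. By level, 3 members lay higher in both CC libraries and 6 lower, but with 2 libraries against 2, 62% of all genes did not overlap. The test of whether the difference between fractions depends on genotype called 0 members (0% of all genes tested), with 0 at an unadjusted p under 0.05 in edgeR and 0 called by DESeq2, and the estimates lay between -0.16 (E2f7) and 0.23 (Rb1).

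**Figure D2:**
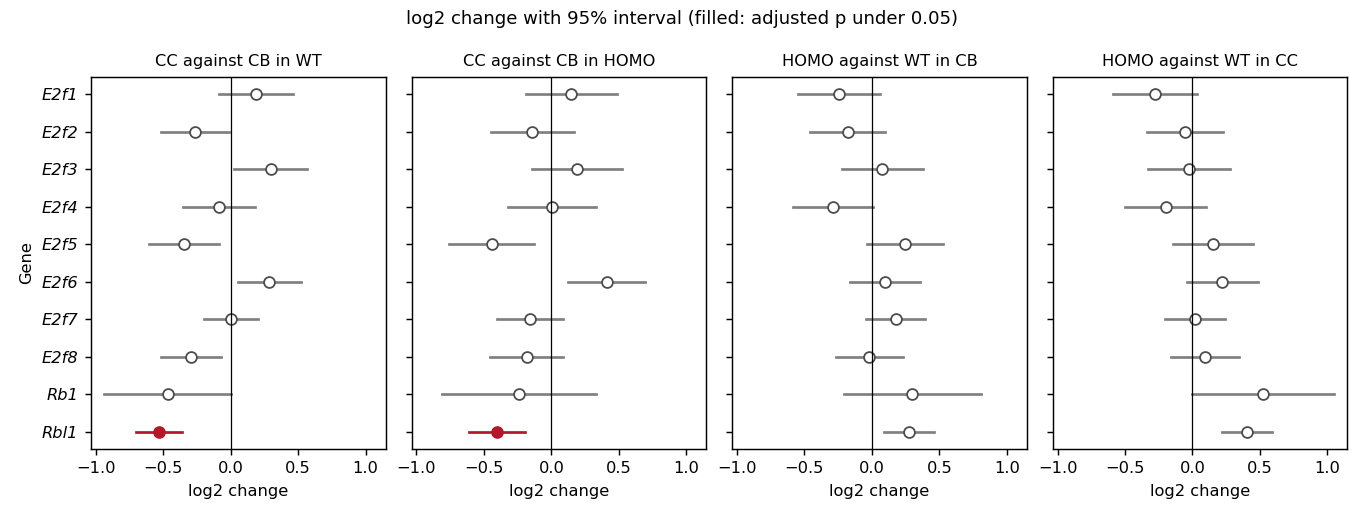
Log2 change of each member with its 95% interval in 4 comparisons, from the edgeR fit to all 10 libraries, with filled points where the adjusted p is under 0.05. Rbl1 is filled between the fractions of WT (-0.53) and of HOMO (-0.40), and no point is filled between genotypes.

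The activator genes E2f1, E2f2 and E2f3 showed no call in either genotype. E2f1 (ENSMUSG00000027490.17, chr2:154559407-154569892 on mm10, minus strand), a main driver of S phase entry, had 68.1, 70 and 54.9 CPM in WT CB libraries 1, 2 and 3, 75.1, 81.8 and 61.9 in WT CC, 55.5 and 53.1 in HOMO CB and 62.9 and 57.3 in HOMO CC. In each WT pair of the same number the CC library was the higher one, but the groups overlapped, and the log2 change was 0.18 (SE 0.12, adjusted p = 0.321) in WT and 0.15 (SE 0.15, adjusted p = 0.687) in HOMO. E2f2 (ENSMUSG00000018983.9, chr4:136172394-136196057, plus strand), an activator that is prominent in lymphocytes, had 252, 259 and 199 CPM in WT CB, 207, 208 and 175 in WT CC, 209 and 208 in HOMO CB and 184 and 195 in HOMO CC. It was lower in CC in each WT pair, with a log2 change of -0.27 (SE 0.11, adjusted p = 0.115), which became -0.26 (adjusted p = 0.00761, 0.000747 to 0.364 over all alternatives) with the WT number as a block. E2f3 (ENSMUSG00000016477.18, chr13:29906575-29986063, minus strand), whose 2 promoters give an activating and a shorter isoform that a count per gene cannot separate, had 55.9, 49 and 49.4 CPM in WT CB, 67.1, 71.1 and 50.8 in WT CC, 55.6 and 52.9 in HOMO CB and 61.2 and 62.7 in HOMO CC. WT CC library 3 lay among the CB values, the other CC libraries above them. The log2 change was 0.30 (SE 0.12, adjusted p = 0.104) in WT, 0.28 (adjusted p = 0.0319, 0.00111 to 0.949 over all alternatives) with the block, and 0.19 (SE 0.15, adjusted p = 0.567) in HOMO. Summed per kb, the 3 activators lay at 67.2 to 84.4 CPM per kb in WT CB and 64.9 to 81.6 in WT CC. The sum was lower in CC in each WT pair of the same number (83.4 and 78.6, 84.4 and 81.6, 67.2 and 64.9). Number 3 was the lowest library of each fraction, and the fractions overlapped. E2f2 made up the largest part of the sum, with means of 48.5 CPM per kb in WT CB and 40.3 in WT CC. The means of E2f1 (20.4 and 23.1) and E2f3 (9.47 and 11.6) were higher in WT CC.

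E2f4 and E2f5, the factors that mainly serve pocket proteins, were not called either. E2f4 (ENSMUSG00000014859.9, chr8:105297663-105305370, plus strand) had 97.3, 105 and 75.7 CPM in WT CB, 90, 92.1 and 79 in WT CC, 75 and 76.6 in HOMO CB and 77.6 and 74.2 in HOMO CC. The fractions overlapped in both genotypes, with log2 changes of -0.09 (SE 0.12, adjusted p = 0.645) and 0.0023 (SE 0.15, adjusted p = 0.999). E2f5 (ENSMUSG00000027552.14, chr3:14578641-14606309, plus strand) had 16.3, 17 and 17 CPM in WT CB, 14, 12.6 and 12.8 in WT CC, 21.4 and 18.5 in HOMO CB and 14.5 and 14.8 in HOMO CC. All CC libraries lay below all CB libraries in both genotypes, with log2 changes of -0.35 (SE 0.12, adjusted p = 0.0518) in WT and -0.44 (SE 0.14, adjusted p = 0.108) in HOMO. The WT value passed with the block (-0.35, adjusted p = 0.0336, 0.0288 to 0.273 over all alternatives).

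Among the repressors, E2f6 and E2f8 differed between the fractions in opposite directions without passing the threshold. E2f6 (ENSMUSG00000057469.8, chr12:16810963-16839742, plus strand), which recruits a Polycomb complex named PRC1.6, had 20.2, 21.4 and 18.9 CPM in WT CB, 25.9, 24.6 and 23.2 in WT CC, 22.4 and 20.9 in HOMO CB and 27 and 30.5 in HOMO CC. Its CC libraries were all above its CB libraries, with log2 changes of 0.29 (SE 0.11, adjusted p = 0.0755) in WT and 0.41 (SE 0.13, adjusted p = 0.102) in HOMO. With the block it passed in WT (0.28, adjusted p = 0.0362, 0.018 to 0.349 over all alternatives) and in HOMO (0.41, adjusted p = 0.0389, 0.00692 to 0.517). The HOMO call was made in 9 of 24 alternatives. Among these were the fixed block, which pairs WT libraries only, DESeq2 (adjusted p = 0.0321), upper-quartile factors (0.0388) and the GC content offset (0.0431). It was not made with the random block. E2f7 and E2f8 encode atypical E2Fs that bind DNA without a DP partner and shut E2F targets down late in S phase. E2f7 (ENSMUSG00000020185.16, chr10:110745439-110787384, plus strand) had 73.5, 67.1 and 70.2 CPM in WT CB, 71.3, 75.8 and 63.3 in WT CC, 80.1 and 78.6 in HOMO CB and 71.2 and 71.1 in HOMO CC, the smallest spread of the family. Its log2 change in WT was -0.0014 (SE 0.091, 95% interval -0.20 to 0.20), and its sign differs between scalings. E2f8 (ENSMUSG00000046179.17, chr7:48866429-48881596, minus strand) had 163, 167 and 134 CPM in WT CB, 127, 131 and 120 in WT CC, 158 and 147 in HOMO CB and 140 and 128 in HOMO CC. It was lower in all CC libraries of both genotypes, with log2 changes of -0.29 (SE 0.10, adjusted p = 0.056) in WT and -0.18 (SE 0.12, adjusted p = 0.486) in HOMO, and it passed in WT with the block (-0.29, adjusted p = 0.00961, 0.000615 to 0.317 over all alternatives). Exons of E2f8 share 610 bases with Gm2788 on the other strand, which had 500 reads over all libraries against 42960 for E2f8.

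Rbl1, which encodes the pocket protein p107, gave the difference that the family's comparison turns on. Rbl1 (ENSMUSG00000027641.13, chr2:157145893-157204534, minus strand) had 201, 209 and 204 CPM in WT CB, 137, 145 and 143 in WT CC, 255 and 240 in HOMO CB and 186 and 189 in HOMO CC. The 4 groups did not overlap, and their order was HOMO CB, WT CB, HOMO CC and WT CC from high to low. In WT it was 30.9% lower in CC (log2 change -0.53, SE 0.076, 95% interval -0.70 to -0.37, adjusted p = 0.000833), and it was called in all 24 alternatives run, with log2 changes from -0.56 to -0.30. The smallest of these came from the fit with a GC content offset (-0.30, adjusted p = 0.011). Without WT CC library 1, the library with the most macrophage marker RNA, the change was -0.50. WT CC libraries 2 and 3 still had 287 and 62.6 CPM of macrophage markers, against 16 to 27.3 in WT CB. The part of macrophage RNA in the change was not tested. In HOMO Rbl1 was 24.3% lower in CC (log2 change -0.40, SE 0.093, 95% interval -0.61 to -0.20, adjusted p = 0.03). This call held in 13 of 24 alternatives, with adjusted p from 6.59e-05 to 0.275. It was lost with upper-quartile factors (adjusted p = 0.0585), with no low-count filter (adjusted p = 0.0744), with the GC content offset (log2 change -0.22, adjusted p = 0.186) and without WT CB library 1 (adjusted p = 0.064). It was also lost without either HOMO CB or either HOMO CC library. Those fits leave 1 library in that group and gave log2 changes from -0.45 to -0.36. The call was likewise lost when both WT libraries numbered 1 (adjusted p = 0.0824) or 2 (adjusted p = 0.0593) were left out, and with offset and block together (adjusted p = 0.0764).

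Rb1 encodes the retinoblastoma protein itself, and its RNA varied most of the family. Rb1 (ENSMUSG00000022105.6, chr14:73183673-73325822, minus strand) had 30.2, 27 and 33.7 CPM in WT CB, 20.6, 14.6 and 31 in WT CC, 38.7 and 35.9 in HOMO CB and 31 and 32.2 in HOMO CC. In WT CC, library 3 was within the CB range and libraries 1 and 2 were far below it, so the log2 change of -0.47 (SE 0.21, adjusted p = 0.139) did not pass, and it was -0.51 (adjusted p = 0.00998, 0.000931 to 0.505 over all alternatives) with the block. Without WT CC library 3 it was -0.77 (adjusted p = 0.00394). In HOMO the change was -0.24 (SE 0.26, adjusted p = 0.7). Exons of Rb1 share 488 bases with Rcbtb2 and 408 with Lpar6, both on the other strand, so its counts are uncertain where the counting did not use strand.

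Rbl2, the gene of the third pocket protein, p130, was measured as part of the pathway. It had 77.6, 80.6 and 79.5 CPM in WT CB, 57.1, 57.8 and 62 in WT CC, 82.4 and 83.8 in HOMO CB and 65 and 62.8 in HOMO CC, lower in every CC library. The log2 change was -0.43 (SE 0.08, adjusted p = 0.00379) in WT and -0.38 (SE 0.098, adjusted p = 0.048) in HOMO. The WT call held in 22 of 24 alternatives and was lost without both WT libraries numbered 1 (-0.41, adjusted p = 0.0611) or 2 (-0.40, adjusted p = 0.0537). The HOMO call held in 9 of 24 alternatives (adjusted p from 0.000657 to 0.312). It was lost without any 1 of the HOMO libraries, which leaves 1 library in that group (log2 changes from -0.416 to -0.367). It was also lost without WT CB 1 (adjusted p = 0.0928), WT CB 2 (0.0698), WT CC 1 (0.0561) or WT CC 2 (0.058). The other losses came without both WT libraries numbered 1 (0.113) or 2 (0.0867), with RLE factors (0.0531), upper-quartile factors (0.0892), no low-count filter (0.138), the random block (0.061) and the GC content offset (0.059). Its exons share 693 bases with Aktip on the other strand. Per kb, Rbl1 made up 67.9% to 69.8% of the summed RNA of the 3 pocket protein genes in WT CB, 64.2% to 70.6% in WT CC, 70.1% to 71.1% in HOMO CB and 69.3% to 69.8% in HOMO CC, so its share moved little while the sum was 48.8 to 50.2 CPM per kb in WT CB and 33.8 to 37.3 in WT CC. In HOMO the sum was 57.1 to 59.9 CPM per kb in CB and 44.8 to 45.2 in CC.

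**Figure D3:**
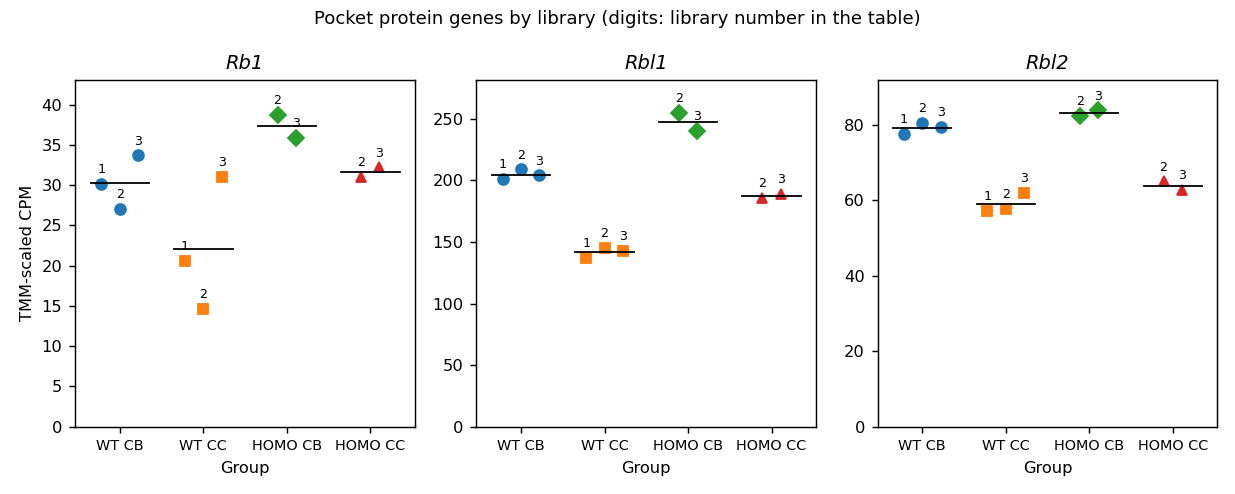
TMM-scaled CPM of Rb1, Rbl1 and Rbl2 in each library (digits are the library numbers of the count table, bars the group means, n = 3 for WT and n = 2 for HOMO groups). Rbl1 falls from 201 to 209 in WT CB to 137 to 145 in WT CC, and Rb1 shows WT CC library 3 (31) apart from libraries 1 and 2 (20.6 and 14.6).

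Between genotypes no member passed the test in either fraction. In CB, edgeR called 0 of 10 members, against 0.0241% of all genes tested in either direction, with 1 member higher and 0 lower at an unadjusted p under 0.05 (6.33% and 6.19% of all genes). DESeq2 called 1 higher and 0 lower (1.68% of all genes in either direction). In CC, edgeR called 0 members and 0% of all genes, with 1 member higher and 0 lower at an unadjusted p under 0.05 (8.68% and 10.3% of all genes). DESeq2 again called 1 higher and 0 lower (4.92%). The member in each case was Rbl1. Its log2 change, HOMO against WT, was 0.27 in CB (SE 0.084, 95% interval 0.09 to 0.46, adjusted p = 0.286 with edgeR) and 0.40 in CC (SE 0.085, 95% interval 0.22 to 0.59, adjusted p = 0.101), and with DESeq2 the adjusted p was 0.0265 and 0.000279, within ranges of 0.00228 to 1 and 0.000182 to 0.55 over all alternatives. With the GC content offset the changes were 0.11 and 0.20. Both comparisons of genotype and both of fraction draw on the same 4 groups, so each group enters 2 of them.

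The other members' values between genotypes had wider or more central intervals. By level, 4 members were higher in every HOMO CB library than in every WT CB library (E2f5, E2f7, Rb1 and Rbl1) and 0 were lower, and in CC 4 were higher (E2f5, E2f6, Rb1 and Rbl1) and 1 was lower (E2f4). Groups that did not overlap made up 35.2% of all genes in CB and 35.2% in CC. Rb1 had log2 changes of 0.30 in CB (SE 0.23, adjusted p = 0.601) and 0.53 in CC (SE 0.24, 95% interval -0.0018 to 1.05, adjusted p = 0.265). E2f4 had -0.29 in CB (SE 0.14, adjusted p = 0.409) and E2f1 had -0.28 in CC (SE 0.14, adjusted p = 0.309). The WT libraries numbered 3 carried much of the spread behind these tests. Without WT CB library 3 alone, 1 member was called higher (Rbl1) and 1 lower (E2f4) in CB, with 12.1% of all genes called. Without WT CC library 3 alone, 2 were called higher in CC (Rb1, with a log2 change of 0.85, and Rbl1) and 0 lower, with 14.8% of all genes called, and without WT CB library 3 alone Rbl1 was called in CC, with 0.745%. Without both WT libraries of that number, 3 were called higher (E2f7, Rb1 and Rbl1) and 3 lower (E2f1, E2f2 and E2f4) in CB, and 2 higher (Rb1 and Rbl1) and 2 lower (E2f1 and E2f4) in CC. That fit called 30.4% of all genes in CB and 31.3% in CC. The genes called lower have the highest transcript GC content of the family (E2f1 58.3%, E2f2 56.6%, E2f4 56.1%). With the GC content offset, E2f1 and E2f2 turned from -0.24 and -0.18 to 0.03 and 0.05 in CB, and E2f4 from -0.20 to 0.00571 in CC. E2f4 in CB and E2f1 in CC kept their sign in all 22 alternatives (-0.415 to -0.0178 and -0.373 to -0.00469). The part of GC content in these calls was not tested.

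**Figure D4:**
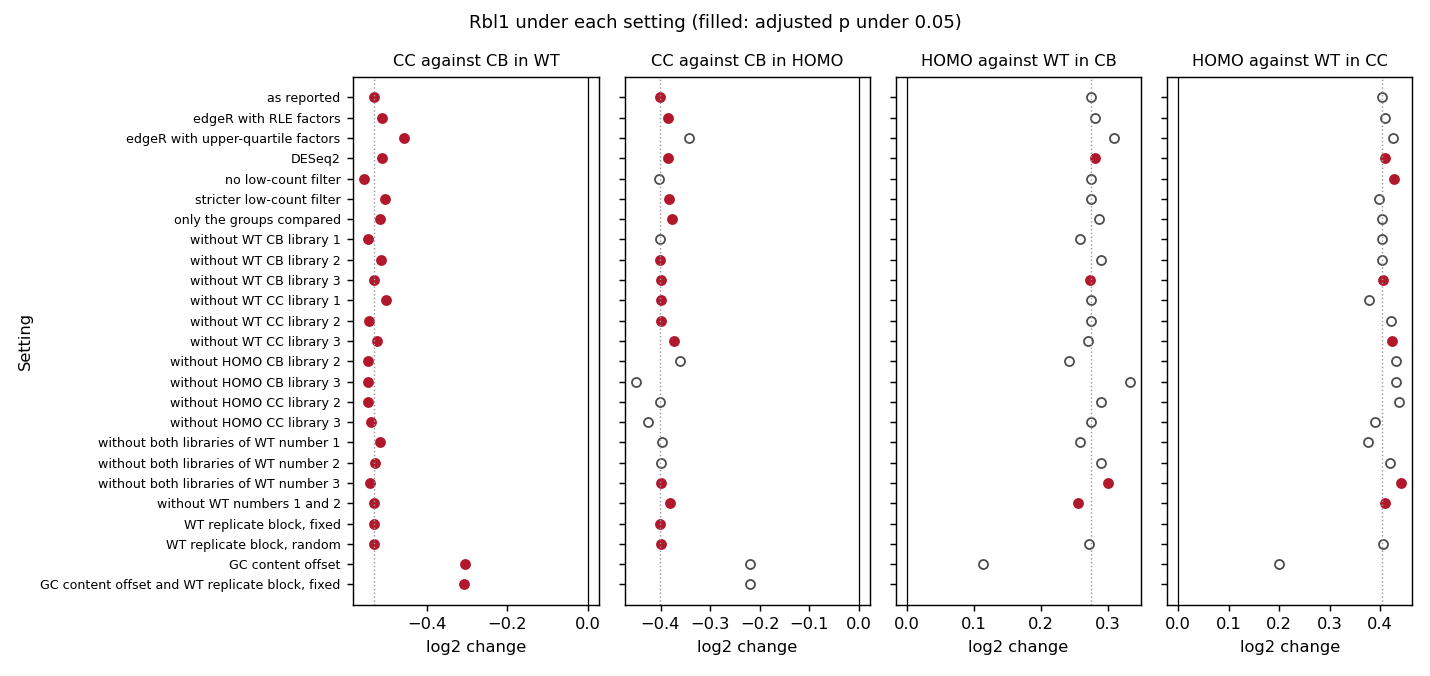
Log2 change of Rbl1 (x axis) in 4 comparisons under each processing alternative and with single libraries left out (y axis), with filled points where the adjusted p is under 0.05 and a dotted line at the value as reported. All points of CC against CB in WT are filled (-0.56 to -0.30), 4 of 22 alternatives are filled between genotypes in CB and 6 of 22 in CC.

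The E2F partners did not pass in any comparison with edgeR as fitted to all 10 libraries, and Tfdp2 passed under some alternatives. Tfdp1, the main DP partner, had 173 to 223 CPM in WT CB, 167 to 201 in WT CC, 202 to 208 in HOMO CB and 183 to 185 in HOMO CC, with log2 changes between fractions of -0.10 (adjusted p = 0.563) in WT and -0.15 (adjusted p = 0.617) in HOMO. Between genotypes it changed by 0.02 in CB and -0.03 in CC. Tfdp2, a second DP gene, had 16 to 18.2 CPM in WT CB, 11.6 to 14 in WT CC, 9.58 to 11.7 in HOMO CB and 9.77 to 12.8 in HOMO CC. Its WT CB libraries were above all others, with a log2 change of -0.44 (SE 0.15, adjusted p = 0.055) for CC against CB in WT and -0.68 (SE 0.17, adjusted p = 0.225) for HOMO against WT in CB. Between the WT fractions Tfdp2 was called in 5 of 24 alternatives (adjusted p from 0.0147 to 0.512). These were DESeq2 (-0.43, adjusted p = 0.0476), the fixed and the random block (adjusted p = 0.0355 and 0.0157), and the fits without WT CC library 3 (0.03) or both WT libraries numbered 3 (0.0147). Between genotypes in CB it was called in 3 of 22 (adjusted p from 0.00628 to 1). These were DESeq2 (-0.68, adjusted p = 0.0243) and the fits without WT CB library 3 (0.0345) or both WT libraries numbered 3 (0.00628).

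Upstream of the pocket proteins lie the G1 cyclins, their kinases and the kinase inhibitors, of which 14 of 15 were tested. In WT, 2 were called higher in CC and 2 lower, against 11.6% and 12.3% of all genes, with 3 and 4 at an unadjusted p under 0.05 (17.7% and 18.6% of all genes). Ccnd2, a D-type cyclin gene, rose from 2.28, 2.75 and 9.78 CPM in WT CB to 69.1, 50.8 and 55.5 in WT CC (log2 change 3.49, SE 0.49, adjusted p = 0.002), and in HOMO from 8.13 and 7.97 to 58.6 and 64.7 (2.94, SE 0.58, adjusted p = 0.025). Cdkn2d, which encodes the CDK4 and CDK6 inhibitor p19, fell from 41, 45 and 27.9 CPM to 18.4, 14.6 and 17.1 in WT (log2 change -1.18, SE 0.17, adjusted p = 0.000871) and from 28.6 and 32 to 14.5 and 14.6 in HOMO (-1.06, SE 0.21, adjusted p = 0.0146). The inhibitor and the cyclin thus moved in opposite directions in both genotypes. In HOMO these were the only 2 calls of the list, against 2.46% of all genes called higher and 2.98% lower. Both were lost without any 1 of the HOMO libraries, which leaves 1 library in that group. The log2 changes in these fits were 2.85 to 3.0 for Ccnd2 and -1.14 to -0.979 for Cdkn2d. Ccnd1, another D-type cyclin gene, was called higher in WT CC (log2 change 4.1, adjusted p = 0.0039) at levels of 0.0788 to 0.156 CPM in CB and 4.35, 1.14 and 0.702 in CC, in the same order over the WT CC libraries as the macrophage markers (1130, 287 and 62.6 CPM), whose part in it was not tested. Without WT CC library 1 the log2 change was 2.93 (adjusted p = 0.0225), and without both WT libraries numbered 1 it was 2.77 (adjusted p = 0.0884). Without numbers 1 and 2 it was 2.12 (adjusted p = 0.369, within a range of 2.51e-07 to 0.369 over 23 alternatives). Ccne2, a cyclin E gene and known E2F target, fell from 46.2 ± 5.29 to 31.7 ± 4 CPM (SD, n = 3) in WT (-0.55, SE 0.12, adjusted p = 0.00883, -0.24, adjusted p = 0.0719, with the GC content offset, and -0.53, adjusted p = 0.0974, without both WT libraries numbered 1). Between genotypes 0 of the 14 were called. At an unadjusted p under 0.05, 2 were higher and 2 lower in CB (6.33% and 6.19% of all genes) and 1 and 1 in CC (8.68% and 10.3%). DESeq2 called 0 in CB and 1 in CC (1.68% and 4.92% of all genes). The smallest p-values were those of Ccne2, with log2 changes of 0.44 in CB (adjusted p = 0.272) and 0.66 in CC (adjusted p = 0.101), of Cdk4 in CB (-0.44, adjusted p = 0.289) and of Ccnd1 in CC (-2.29, adjusted p = 0.199). Without WT CB library 3 the calls of this list numbered 8 between the WT fractions and 6 between genotypes in CB, and without WT CC library 3 they numbered 2 between genotypes in CC. Of all genes, 32%, 12.1% and 14.8% were called there. With the fixed WT block 8 were called between the fractions in WT and 4 in HOMO (35.4% and 13.8% of all genes).

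Downstream, 36 E2F target genes of S phase were all tested, and most of those called in WT were lower in CC. In WT, 13 were called lower and 1 higher, against 12.3% and 11.6% of all genes. There were 14 and 3 at an unadjusted p under 0.05 (18.6% and 17.7% of all genes) and a median log2 change of -0.23 against 0.01 over all genes. Ccna2, which encodes the S and G2 cyclin A2, fell from 269 ± 37.1 to 122 ± 10.4 CPM (n = 3; log2 change -1.14, SE 0.12, adjusted p = 0.00012). Rrm1, a ribonucleotide reductase gene, fell by 0.54 on the log2 scale (SE 0.11, adjusted p = 0.00638), and Ezh2, which encodes the Polycomb methyltransferase, fell by 0.40 (SE 0.078, adjusted p = 0.00492, and by 0.22 with the GC content offset). Both calls were lost without both WT libraries numbered 1 (adjusted p = 0.0872 for Rrm1 and 0.0777 for Ezh2) or 2 (adjusted p = 0.0867 and 0.0617), and held in the other 22 of 24 alternatives. Over all of them the change of Rrm1 ranged from -0.70 to -0.21. The one gene called higher in WT CC was Tk1, the gene of thymidine kinase, at 82.4 ± 13.8 CPM in CB and 112 ± 19.4 in CC (0.44, SE 0.15, adjusted p = 0.0465), named here after its value was seen. The count of 14 calls moved with single WT libraries. It was 5 without WT CB 1 (12.7% of all genes called), 7 without WT CB 2 (14.7%) and 22 without WT CB 3 (32%). It was 7 without WT CC 1 (15.2%), 7 without WT CC 2 (15.3%) and 22 with the WT number as a fixed block (35.4%).

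In HOMO, 2 of the 36 were called lower in CC and 1 higher, against 2.98% and 2.46% of all genes. There were 6 and 3 at an unadjusted p under 0.05 (10.3% and 8.93% of all genes) and a median log2 change of -0.02 against -0.01 over all genes. Ccna2 changed from 275 ± 11.2 to 154 ± 15.3 CPM (n = 2; log2 change -0.84, SE 0.14, adjusted p = 0.00619), while Orc1, a subunit of the origin recognition complex, rose from 20.7 ± 1.19 to 29.8 ± 0.23 (0.53, SE 0.14, adjusted p = 0.0491). The call of Ccna2 held in 22 of 24 alternatives. It was lost without HOMO CB library 3 (log2 change -0.802) or HOMO CC library 2 (-0.752), fits that leave 1 library in that group. The call of Orc1 held in 13 of 24. It was lost without any 1 of the HOMO libraries (log2 changes from 0.468 to 0.587). The same was seen without WT CB 1 (adjusted p = 0.0852), WT CB 2 (0.0666) or WT CC 1 (0.0501). It was also lost without both WT libraries numbered 1 (0.0913) or 2 (0.0673), with the random block (0.063) and with no low-count filter (0.0785). The count of 3 was 6 without WT CB 3 (9.44% of all genes), 5 without WT CC 3 (9.7%) and 10 with the fixed block (13.8%). It was lower without any 1 of the HOMO libraries, which leaves 1 library in that group. A lower count in HOMO than in WT does not show a difference between genotypes. The test of that difference called 0 of the 36, with 2 above 0 at an unadjusted p under 0.05 (0.958% of all genes) and a median of 0.21 over the list. It called 14 without both WT libraries numbered 3, where 8.98% of all genes were called. Between genotypes edgeR called 0 of the 36 in both fractions. At an unadjusted p under 0.05, 1 was higher and 2 lower in CB, against 6.33% and 6.19% of all genes. In CC 8 were higher and 0 lower, against 8.68% and 10.3% of all genes. DESeq2 called 1 and 3 (1.68% and 4.92% of all genes). The smallest p-values in CB were those of Brca2 (log2 change 0.50, adjusted p = 0.225) and Cdt1 (-0.41, adjusted p = 0.289), and in CC those of Brca1 (0.38, adjusted p = 0.105) and Prim1 (0.49, adjusted p = 0.123). Without WT CB library 3 edgeR called 7 in CB and 2 in CC, and without WT CC library 3 it called 7 in CC (12.1%, 0.745% and 14.8% of all genes). Without both WT libraries numbered 3 it called 17 in each fraction (30.4% and 31.3%).

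**Figure D5:**
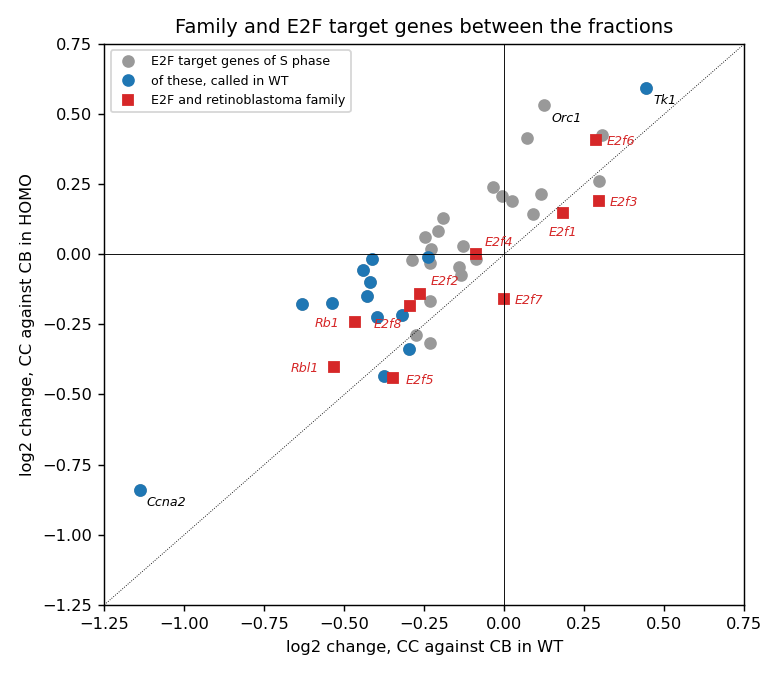
Log2 change, CC against CB, in WT (x axis) and HOMO (y axis) for E2F target genes of S phase (grey, blue where called in WT) and the 10 members (red squares), with a dotted line of equal change. Ccna2 (-1.14 and -0.84) lies farthest down, and Rbl1 lies at -0.53 and -0.40.

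MuvB is a complex that joins Rbl1 or Rbl2 and E2F4 into the DREAM repressor of cell cycle genes, and B-Myb (Mybl2) and FOXM1 (Foxm1) into activating forms. Of its 7 listed genes, 4 were called lower in WT CC and 1 higher, against 12.3% and 11.6% of all genes. Rbbp4, a histone-binding subunit, fell by 0.62 on the log2 scale (SE 0.11, adjusted p = 0.00265), Lin54, the subunit that binds the CHR element, by 0.42 (SE 0.081, adjusted p = 0.00419), and Lin9 by 0.49 (SE 0.12, adjusted p = 0.0144), and with the GC content offset the changes of Lin54 and Lin9 were -0.19 (adjusted p = 0.102) and -0.27 (adjusted p = 0.132). Mybl2 rose from 92.6, 91.3 and 72.8 CPM to 139, 140 and 103 (0.57, SE 0.13, adjusted p = 0.00974). Without both WT libraries numbered 1, 0 of the 7 were called in WT (adjusted p from 0.052 for Lin54 to 0.134 for Lin9 among the 4 named). That fit called 6.32% of all genes. Mybl2 was also lost without both numbered 2 (adjusted p = 0.0696) and Lin9 with only the groups compared (adjusted p = 0.0557). In HOMO 0 of the 7 were called by edgeR, 2 by DESeq2 (9.98% of all genes) and 3 with the fixed block (13.8%). At an unadjusted p under 0.05 in edgeR, 1 was higher and 3 lower (8.93% and 10.3% of all genes). Lin54 had -0.37 (adjusted p = 0.0567) and Mybl2 0.57 (adjusted p = 0.0681) there. The count of edgeR calls in HOMO was 2 without WT CB library 3 and 2 without WT CC library 3 (9.44% and 9.7% of all genes). Between genotypes 0 were called in either fraction by either tool. At an unadjusted p under 0.05 there were 0 in CB (12.5% of all genes in either direction) and 2 higher in CC (8.68%). The smallest p-values were those of Mybl2 (-0.25, adjusted p = 0.496) and Lin37 (-0.30, adjusted p = 0.498) in CB, and of Rbbp4 (0.31, adjusted p = 0.201) and Lin9 (0.31, adjusted p = 0.258) in CC. Without WT CC library 3, 2 were called in CC (14.8% of all genes).

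Genes of PRC1.6, the complex that E2F6 joins, showed no call in any comparison with edgeR. Of 12, 0 were called between the fractions in WT, with 0 at an unadjusted p under 0.05 and 0 called by DESeq2, although leaving out WT CB library 3 gave 2 calls, leaving out WT CC library 3 gave 3, and the fixed block gave 2 (32%, 32.5% and 35.4% of all genes). In HOMO 0 were called, with 1 lower at an unadjusted p under 0.05 (Cbx3, a heterochromatin protein gene, log2 change -0.51, adjusted p = 0.0888), against 10.3% of all genes. DESeq2, the fit without WT CC library 3 and the fixed block each called 1 (9.98%, 9.7% and 13.8% of all genes). The next smallest p-values belonged to Yaf2 in HOMO (-0.21, adjusted p = 0.477) and to Max (-0.17, adjusted p = 0.202) and Ring1 (0.36, adjusted p = 0.232) in WT. Between genotypes 0 were called, with 1 higher and 1 lower at an unadjusted p under 0.05 in each fraction. These were Mga (0.42, adjusted p = 0.342) and L3mbtl2 (-0.29, adjusted p = 0.389) in CB, against 6.33% and 6.19% of all genes. In CC they were Rnf2 (0.30, adjusted p = 0.218) and Ring1 (-0.56, adjusted p = 0.236), against 8.68% and 10.3%. DESeq2 called 0 of the 12 in both fractions. Without WT CB library 3, 2 were called in CB, and without WT CC library 3, 3 in CC (12.1% and 14.8% of all genes). Of 7 germline genes known to be silenced by E2F6, 2 reached the filter on low counts. Stag3, a meiotic cohesin gene, had 4.76 to 7.48 CPM in WT CB, 4.77 to 9.24 in WT CC, 2.97 to 4.62 in HOMO CB and 4.33 to 5.12 in HOMO CC, and Syce2, a gene of the synaptonemal complex, had 8.24 to 10.6, 8.85 to 11.2, 10 to 10.2 and 8.73 to 13.4. Neither was called in any comparison by DESeq2 or by edgeR as fitted to all 10 libraries, or reached an unadjusted p under 0.05 in that fit. Without both WT libraries numbered 3, Stag3 was called lower in HOMO in CB (-0.77, adjusted p = 0.0259, up to 1 over all alternatives) and in CC (-0.88, adjusted p = 0.0189, up to 1). Syce2 was called in 0 of the alternatives. In the fit to all libraries the log2 changes of HOMO against WT were -0.66 and 0.04 in CB and -0.67 and 0.10 in CC for Stag3 and Syce2.

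For each member, the genes of most similar pattern were found as those with the smallest root mean square difference of log2 CPM, each gene centred on its mean over the 10 libraries, among 8889 genes. Rbl1 was closest to Ift80 (0.0547) and Ulbp1 (0.0584), and Rb1 to Cd164 (0.0832) and Esco1 (0.0936). The activators were closest to Trmt2a (0.0281) and Farsa (0.0354) for E2f1, Smarcc2 (0.0415) and Poldip3 (0.0453) for E2f2, and Dtnbp1 (0.0542) and Ffar1 (0.066) for E2f3. E2f4 was closest to Mta2 (0.0384) and Khsrp (0.0384), and E2f5 to Tpd52 (0.0455) and Gtf2a1 (0.0552). The repressors were closest to Znfx1 (0.0681) and Pde4a (0.0745) for E2f6, Dync1li2 (0.0468) and Tacc1 (0.051) for E2f7, and Anapc5 (0.0476) and Tmem127 (0.0486) for E2f8. No member was among the closest genes of another. The measure describes these libraries, which share their groups, depth and GC trends.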

How the data were processed

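RNA was counted per gene in 10 libraries. The authors deposited raw counts per gene as whole numbers, with a length per gene. STAR, featureCounts, Subread, FastQC, R 4.2.1 and mm10 are named, without settings, per the submitters' processing notes, and whether strand was used is not given in the sources used here. Groups came from the sample titles. HOMO columns are numbered 2 and 3 in the table but 1 and 2 in the titles, so they were assigned to groups only. Column names also carry the letters AID, which are not explained.

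Genes were filtered with filterByExpr (minimum count 10, minimum total 15), scaled with TMM factors and fitted with edgeR 4.0.16 in R 4.3.3 (4 group means, all 10 libraries, robust quasi-likelihood F-test, common biological coefficient of variation 23.1%). Adjusted p-values are Benjamini-Hochberg values over all 16596 genes, and called means an adjusted p under 0.05. CPM values are TMM-scaled, and levels per kb use the deposited length. The alternatives were other factors and filters, DESeq2 1.42.0, limma 3.58.1 with voom and a random block, a GC content offset, fits of the compared groups alone and fits without single or paired libraries. Steps were tested on simulated data. No 2 libraries of a group were duplicates. Deviations of same-numbered WT libraries correlated with r = 0.301, 0.426 and 0.436 over 8805 genes. The WT number was taken to pair them, which comes from the data and not from a label. Of unlike numbers, CB 1 with CC 2 gave 0.278 and CB 2 with CC 1 gave 0.163. Pairs of number 3 with 1 or 2 gave -0.411 to -0.244. The correlations thus set number 3 apart, and numbers 1 and 2 less clearly from each other.

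The members and the 6 pathway lists were chosen with earlier results of these data known. The text names all members, up to 4 called genes of each list with the smallest p (or else 2 with values only) in the comparisons of 2 groups, and 2 genes of most similar pattern with at least 5 CPM. The values of 1 listed gene are neither reported nor plotted here. Protein sequences were not used here.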

Additional observations from a re-analysis of the deposited data

How the results depend on the processing

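The fall of Rbl1 in WT CC was called in all 24 alternatives. Members called (higher and lower) in CC against CB of WT were 0 and 1 as reported. Percentages in brackets are the share of all genes called in that fit in either direction. The member counts were 2 and 1 with upper-quartile factors (23.8%), 1 and 2 with DESeq2 (27.4%) and 0 and 3 with no low-count filter (15.7%). They were 1 and 3 with the stricter filter (31.2%) and 2 and 4 without both WT libraries numbered 3 (46%). With the WT replicate block they were 2 and 5, as a fixed (35.4%) or a random (33.6%) term. With the GC content offset they were 2 and 3, alone (25.2%) or with the block (33.3%). In HOMO, 0 and 1 as reported, they were 1 and 0 with upper-quartile factors (6.04%). DESeq2 (9.98%) and the fixed replicate block (13.8%) gave 1 and 1. The counts were 0 and 0 with no low-count filter (5.04%) and without both WT libraries numbered 1 (3.73%) or 2 (4.47%). They were 2 and 2 with only the compared groups (30.4%) and 1 and 2 without number 3 (23%). With the GC content offset they were 1 and 0 (6.8%), and with offset and block 1 and 1 (11%). Between genotypes, 0 as reported, CB gave 1 and 0 with DESeq2 (1.68%) and 3 and 3 without number 3 (30.4%). CC gave 1 and 0 with DESeq2 (4.92%), 2 and 2 without number 3 (31.3%) and 2 and 0 with no low-count filter (4.49%). Leaving out 1 library gave 0 to 2 higher and 1 to 3 lower in WT, 0 to 1 and 0 to 1 in HOMO, 0 to 1 and 0 to 1 between genotypes in CB, and 0 to 2 higher in CC. Without 1 WT library, the share of all genes called was 12.7% to 32.5% in WT and 3.93% to 9.7% in HOMO. Between genotypes that share was 0% to 12.1% in CB and 0% to 14.8% in CC. A fixed block was not fitted between genotypes, because each block lies within 1 genotype. As a random term the block changed no call of a member there. The cause of these moves was not tested.

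Some log2 changes that were not called as reported changed sign, from -0.30 (Lin37, HOMO against WT in CB) to 0.31 (Stag3, CC against CB in WT), and none was called where its sign was changed. Of these, E2f1, E2f2 and Lin37 in CB and E2f4 in CC were called between genotypes, in the reported direction, without both WT libraries numbered 3. For E2f7 in CC against CB of WT (-0.0014 as reported) the values were 0.0168 with RLE factors, 0.0699 with upper-quartile factors, 0.0178 with DESeq2, 0.0245 with the stricter filter, 0.0115 with only the compared groups, 0.0241 and 0.0669 without WT numbers 1 and 3, 0.028 with the GC offset and 0.0305 with offset and replicate block. With the GC offset, Tfdp1 was 0.0172 in WT (0.0155 with the block), E2f1 -0.000252 and E2f4 -0.0983 (-0.0981 with the block) in HOMO, E2f1 0.03, E2f2 0.0545 and E2f8 0.0551 between genotypes in CB, and E2f2 0.164 and E2f4 0.00571 in CC. Between genotypes in CB, E2f8 was 0.0231 with upper-quartile factors and 0.023 and 0.0411 without WT numbers 1 and 2, and without number 3 Syce2 was -0.0429 and Tfdp1 -0.0523. In CC, E2f3 was 0.0193 and 0.0675 without numbers 1 and 2, Tfdp1 0.0136 without number 1 and E2f7 -0.0197 without number 3. Without both numbers 1 and 2, which leaves 1 library in each WT group, assumed to vary like the others, E2f4 was 0.0376 and Stag3 -0.0213 between WT fractions, E2f2 0.0505, E2f8 0.17 and Lin37 0.00497 between genotypes in CB, and E2f2 0.136, E2f3 0.309 and Tfdp1 0.165 in CC. In the difference between genotypes of CC against CB it gave 0.0234 for E2f1, 0.196 for E2f3, -0.0138 for E2f4, 0.00765 for E2f5, 0.0353 for E2f7 and -0.0738 for Rb1, and E2f3 was 0.0216 without number 2. Leaving out 1 library gave -0.214 to 0.0114 for E2f4, -0.0568 to 0.0823 for E2f7 and -0.0277 to 0.202 for Syce2 in WT, and -0.0426 to 0.0321 for E2f4, -0.222 to 0.399 for Syce2 and -0.13 to 0.255 for Tfdp2 in HOMO. Between genotypes it gave -0.112 to 0.0493 for E2f8, -0.0695 to 0.105 for Syce2 and -0.079 to 0.0964 for Tfdp1 in CB, and -0.121 to 0.0103 for E2f2, -0.149 to 0.0677 for E2f3, -0.0391 to 0.077 for E2f7, -0.333 to 0.0302 for Tfdp2, -0.23 to 0.37 for Syce2 and -0.104 to 0.0142 for Tfdp1 in CC. For the difference it gave -0.128 to 0.0669 for E2f1, -0.00904 to 0.219 for E2f4, -0.182 to 0.0253 for E2f5 and -0.00111 to 0.558 for Rb1. Ranked by CPM without length, Rbl1 stood directly behind E2f2 in WT CB. In HOMO CB it stood above E2f2 (255 and 240 CPM against 209 and 208), and in HOMO CC they overlapped (186 and 189 against 184 and 195). Groups of 2 or 3 libraries limit what could be detected, and HOMO CC library 3 was the shallowest at 9954006 counts.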
